A study of Mus musculus with 13 samples.

Results

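The meiotic and spermatid genes are 40 mouse genes whose products are known from male germ cells in meiosis and from the spermatids that follow. They comprise 4 testis enzymes, 6 sperm chromatin genes, 8 genes of the acrosome and of sperm-egg fusion, 12 tail and motility genes, 3 kinases, 4 genes of RNA and transcription control and 3 others. The members were chosen by name from the array annotation, older symbols included. Earlier results of these data were known then, so counts of members against all genes are not independent support. The members were read by 53 of the 62976 array features and made up 40 of 20738 named genes. In 12 of them several features read the gene, and the feature with the highest mean over all arrays was tested. After meiosis, male germ cells become round and then elongating spermatids, which replace histones by transition proteins and then by protamines, build the acrosome that carries enzymes to the egg, and assemble the tail. Much of their metabolism and RNA handling relies on testis-specific copies of widely expressed genes, and many of their mRNAs are stored before translation. Sertoli cells are the somatic cells that surround and support these germ cells, and in the fetal testis the male germ cells have not entered meiosis.

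RNA was measured on 13 Agilent 1-colour arrays in 7 groups, with 2 arrays in each group but one. Mouse embryonic fibroblasts (MEF) carried an empty vector and tail tip fibroblasts (TTF) carried tdTomato, a red fluorescent reporter. Both were labelled wild type and grown for 3 passages in 10% serum. Induced embryonic Sertoli cells (ieSC) carried Nr5a1, Wt1, Dmrt1, Gata4 and Sox9 and were grown for 6 months in 2% serum with doxycycline. Those derived from TTF, here TTF-ieSC, had 2 arrays, and those derived from MEF, here MEF-ieSC, had 1. The native groups carried no transgene and were wild type: whole male gonad at 14.5 dpc that was not cultured, immature Sertoli cells from 19 dpc testis cultured for 3 days, and mature Sertoli cells from 8-week testis cultured for 7 days, both in 10% serum. Age, days in culture and the source testis therefore differed together between mature and immature Sertoli cells. Fibroblasts kept under the conditions of the induced cells but lacking the factors were not among the groups. The strain, the way the Sertoli cells were isolated, and whether replicate arrays came from separate animals or cultures are not given, so a p-value here covers the variation from array to array, which may be technical.

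The values were log2 signals with a median of 7.488 on every array. A value under that median is dim by rank, and a difference from it moves with the background, which is unknown. The 20 Sertoli cell markers had a mean level of 13.64 in mature Sertoli cells, 13.43 in immature Sertoli cells and 14.09 in the gonad, and 19 of them lay above the median in the mature cells. The exception there was Amh (6.59), the anti-Müllerian hormone of fetal Sertoli cells. Over the 40 members the replicate mature arrays differed by at most 0.267.

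The mature Sertoli cell cultures stood apart from the rest of the series in these genes. Both mature arrays lay above all 11 other arrays in 39 of the 40 members, against 9.78% of all genes. They lay more than 1 log2 unit above them in 35 members, against 4.26% of all genes. The mean level over the 40 members was 11.51 and 11.54 on the mature arrays, and between 7.09 and 7.6 on the others. A total of 39 members had a mean above the array median in mature cells, against 18 in immature cells and 18 in the gonad. The count was 17 in each kind of induced cell, 16 in MEF and 13 in TTF. That median is over all features, and 16658 of the 20738 genes lay above it on at least 2 arrays. The share of all genes above it in each group was not counted. Izumo1, the sperm protein that binds the egg, was dim in every group, with 7.47 on both mature arrays.

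**Figure D1:**
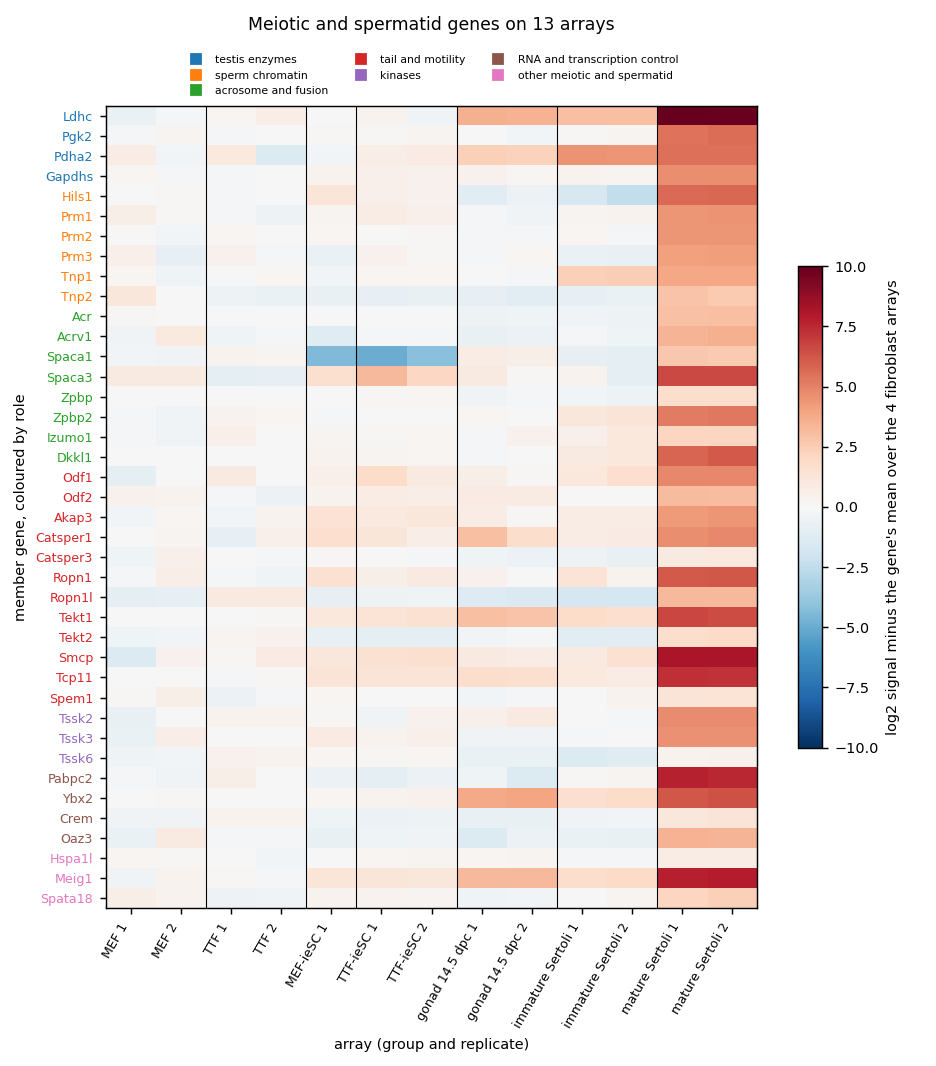
Log2 signal of each member (y axis, coloured by role) on each of the 13 arrays (x axis), shown as the difference from that gene's mean over the 4 fibroblast arrays (colour scale). The columns of the mature Sertoli arrays are red in nearly every line, and Spaca1 is blue on the 3 induced arrays.

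Mature against immature Sertoli cells gave the direct comparison of the cultured adult and perinatal testis cells. Of the 40 members, 39 were higher in mature cells (limma, adjusted p under 0.05), where 23.4% of all genes were called higher, and 0 were lower, where 31.5% of all genes were called lower. A total of 38 rose by 1 log2 unit or more, against 10.3% of all genes, and 0 fell by as much, against 7.98%. The median difference over the members was 4.09 and over all genes -0.08. The members ranged from 0.91 for Hspa1l, a testis relative of the inducible heat shock genes, to 7.71 for Hils1, a linker histone-like gene of spermatids. Since these are bulk cultures, fewer cells of a type cannot be told apart from less RNA per cell.

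Among the testis enzymes, Ldhc, the lactate dehydrogenase subunit of germ cells and sperm, reached 15.96 and 15.84 on the mature arrays. It read 9.0 and 8.94 in immature cells, 9.49 and 9.42 in the gonad, and between 5.29 and 6.65 on the 7 fibroblast and induced arrays. The mature arrays did not overlap with any other group, and lay 6.93 ± 0.26 (log2 difference ± SE, adjusted p = 3.99e-07) above immature cells. Its other feature differed by 6.62 ± 0.13. Pgk2, a phosphoglycerate kinase encoded by an intronless autosomal gene, read 11.71 and 11.85 in mature cells and between 6.06 and 6.58 on every other array, with a rise of 5.28 ± 0.17 from dim values. Gapdhs, the glyceraldehyde-3-phosphate dehydrogenase of the sperm tail, read 11.63 and 11.65 against 7.36 and 7.26 in immature cells, a rise of 4.33 ± 0.13. Both genes were near or under the median everywhere but in mature cells.

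Pdha2, the testis form of a pyruvate dehydrogenase subunit, was the member that was not called. It read 11.15 and 11.16 in mature cells, 10.14 and 10.06 in immature cells, and 8.01 and 7.95 in the gonad. These groups did not overlap, and the difference of 1.06 ± 0.66 (adjusted p = 0.222) carried the spread of the TTF arrays, which read 6.56 and 4.21. It passed with the compared groups alone (adjusted p = 0.00172) and without either TTF array (adjusted p = 0.0174). The widely expressed counterparts, whose values were looked up after the members had been seen, were bright in all groups. Between mature and immature cells Ldha differed by 0.36, Gapdh by 0.15, Pgk1 by 1.02 and Pdha1 by 1.58, with no test here. The immature arrays were uneven for Pdha1, at 12.18 and 10.83, against 13.07 and 13.10 in mature cells.

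All 6 sperm chromatin genes were higher in mature cells. Hils1 read 12.54 and 12.64 there and was dim in immature cells (5.30 and 4.46) and in the gonad (5.79 and 6.27). Its highest value elsewhere was 8.13 on the MEF-ieSC array. The protamine genes Prm1 and Prm2, which encode the small basic proteins that pack sperm DNA, read 12.01 and 12.11 and 11.52 and 11.54 on the mature arrays. Prm1 read 7.91 and 7.99 and Prm2 7.27 and 6.98 in immature cells, so neither overlapped. The rises were 4.11 ± 0.17 for Prm1 (adjusted p = 6.40e-07) and 4.4 ± 0.13 for Prm2 (adjusted p = 1.40e-07).

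The transition protein genes Tnp1 and Tnp2, whose products come between histones and protamines, differed in the immature cells. Tnp2 read 10.22 and 10.03 in mature cells and 6.61 and 6.71 in immature cells, with a rise of 3.47 ± 0.31. Tnp1 read 11.37 and 11.41 in mature cells and already 9.89 and 10.00 in immature cells, with a rise of 1.44 ± 0.18 (adjusted p = 0.000261). On the 9 remaining arrays Tnp1 lay between 7.09 and 7.73. Prm3, which lies in the same gene cluster as the protamines, read 10.62 and 10.63 against 5.84 and 5.75 in immature cells.

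Tnp2, Prm3, Prm2 and Prm1 are neighbours on chromosome 16 in the RefSeq annotation, between Socs1 and Rmi2. All 4 rose, by 3.47 to 4.83. The flanking genes, looked up after the members had been seen, did not share that direction: Socs1, an inhibitor of cytokine signalling, read 10.30 and 10.44 in mature and 11.04 and 11.16 in immature cells, and Rmi2, of a DNA repair complex, read 7.30 on both mature arrays and 7.88 and 7.97 on the immature ones. They were not tested as members.

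**Figure D2:**
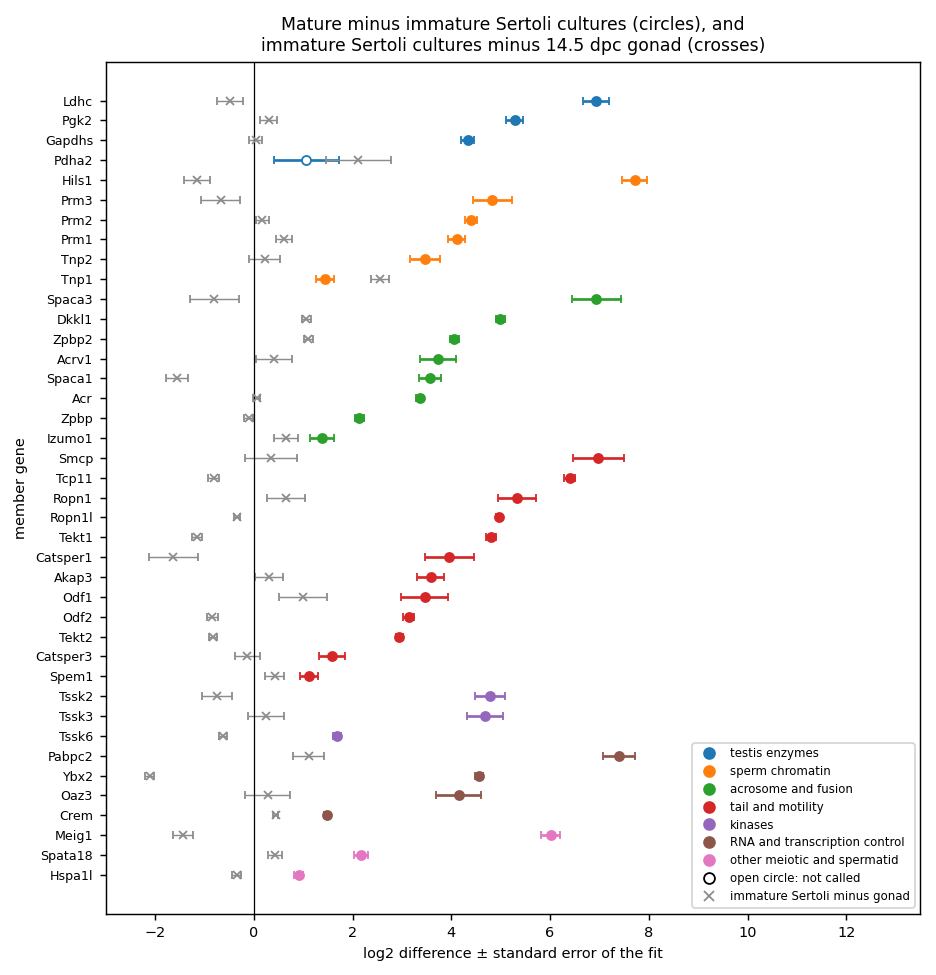
Log2 difference ± SE of the fit (x axis) for each member (y axis) between mature and immature Sertoli cells (circles, coloured by role, open where not called) and between immature Sertoli cells and the 14.5 dpc gonad (crosses). All circles lie right of 0, from 0.91 to 7.71, while the crosses lie on both sides, from -2.11 to 2.55.

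The 8 acrosome and fusion genes were all higher in mature cells, by 1.38 (Izumo1) to 6.94 (Spaca3). Spaca3, a lysozyme-like acrosome protein gene, read 11.87 and 11.86 in mature cells and 5.56 and 4.28 in immature cells, and its difference of 6.94 ± 0.50 is set against dim values. Dkkl1, which encodes a secreted acrosome protein, read 13.99 and 14.26 against 9.07 and 9.21, a rise of 4.99 ± 0.09. Zpbp2, a zona pellucida-binding protein gene of the acrosomal matrix, read 13.45 and 13.49 against 9.34 and 9.47, a rise of 4.06 ± 0.09. In each the mature arrays stood clear of all others.

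For Acr, which encodes the protease acrosin, the other groups were flat, which did not hold for every member. Acr read 11.09 and 11.13 in mature cells and between 7.65 and 8.25 on the other 11 arrays. Its rise over immature cells was 3.36 ± 0.07 (adjusted p = 3.78e-08). Acrv1, of the acrosomal matrix (3.73 ± 0.36), and Spaca1, an acrosome membrane gene (3.57 ± 0.22), rose by similar amounts, and Zpbp, the relative of Zpbp2, by 2.14 ± 0.09. Outside the induced cells Spaca1 was not dim: it read 10.01 and 9.89 in the gonad and between 8.93 and 9.62 in fibroblasts.

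All 12 tail and motility genes were higher in mature cells, with a median difference of 3.77. Smcp, a protein gene of the sperm mitochondrial capsule, had the largest (6.98 ± 0.52), from 5.33 and 5.91 in immature cells to 12.62 and 12.58. Tcp11, of the t-complex and linked to sperm motility, read 15.04 and 14.98 against 8.71 and 8.52, a rise of 6.40 ± 0.11. The ropporin genes encode proteins that bind kinase anchors in the fibrous sheath. Ropn1 was dim outside mature cells, between 5.12 and 7.06, and rose by 5.33 ± 0.38. Ropn1l was bright everywhere, reading 15.37 and 15.32 in mature cells, 12.98 on average in TTF, and 10.43 and 10.34 in immature cells, and rose by 4.96 ± 0.06.

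The tektins, filament proteins of the axonemal microtubules, moved with them. Tekt1 read 13.37 and 13.26 in mature cells against 8.57 and 8.43 in immature cells (4.81 ± 0.10), and Tekt2 10.82 and 10.96 against 7.93 and 7.96 (2.95 ± 0.08). Akap3, the anchor protein of the fibrous sheath, rose by 3.58 ± 0.28 and Odf1, of the outer dense fibres, by 3.46 ± 0.48, both from dim values. Catsper1 and Catsper3, pore subunits of the sperm calcium channel, rose by 3.96 ± 0.49 and 1.58 ± 0.26. Catsper3 reached 7.56 and 7.61, just above the array median, and its other feature did not pass (1.57 ± 0.63, adjusted p = 0.0674). Spem1, needed to shed spermatid cytoplasm, rose by 1.12 ± 0.19.

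Odf2 encodes an outer dense fibre protein that is also a centrosome protein of somatic cells, and its features differed. The tested feature read 15.16 and 15.08 in mature cells and 11.96 and 11.99 in immature cells, and between 11.41 and 12.83 on the other 9 arrays, with a rise of 3.14 ± 0.11. The other feature read 11.12 and 11.14 against 10.91 and 10.99, a difference of 0.18 ± 0.07 (adjusted p = 0.0637 over all features), and its mature values lay within those of the other arrays. The stretch of transcript that each feature matches is not stated.

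The testis-specific serine kinase genes Tssk2, Tssk3 and Tssk6, which act in spermatids, were higher by 4.78 ± 0.30, 4.68 ± 0.36 and 1.68 ± 0.08. Tssk2 and Tssk3 were dim outside mature cells, between 4.61 and 7.38. Tssk6 read 9.47 and 9.53 in mature cells, 7.72 and 7.90 in immature cells, and 9.53 and 9.47 in TTF. It was the member for which the mature arrays did not stand above all others.

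Among the genes of RNA and transcription control, Pabpc2, an intronless poly(A)-binding protein gene, read 13.66 and 13.49 in mature cells and between 4.59 and 6.56 on the other arrays. It rose by 7.40 ± 0.32 over immature cells. Ybx2, whose Y-box protein binds and stores germ cell mRNAs, read 14.17 and 14.31 in mature cells, 9.63 and 9.74 in immature cells, and 11.72 and 11.86 in the gonad, a rise of 4.56 ± 0.09 over immature cells. Oaz3, a testis antizyme that acts on polyamine levels, rose by 4.15 ± 0.46 from dim values. Of the others, Meig1, a meiosis-expressed gene needed for spermatid shaping, rose by 6.01 ± 0.20 from 8.70 and 8.84 to 14.71 and 14.85. Spata18, known for mitochondrial quality control, rose by 2.17 ± 0.14.

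Crem, the transcription factor gene whose testis activator form turns on many spermatid genes, had 3 features that went different ways. The tested feature read 11.60 and 11.75 in mature cells and 10.16 and 10.21 in immature cells, a rise of 1.49 ± 0.06 (adjusted p = 8.89e-07). The second read 9.16 and 9.15 against 9.31 and 9.40, a difference of -0.20 ± 0.07 (adjusted p = 0.0437 over all features). The third, dim by rank, read 6.81 and 6.74 against 6.95 and 7.18, a difference of -0.29 ± 0.13 (adjusted p = 0.0906). The direction for Crem therefore rests on the feature read.

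**Figure D3:**
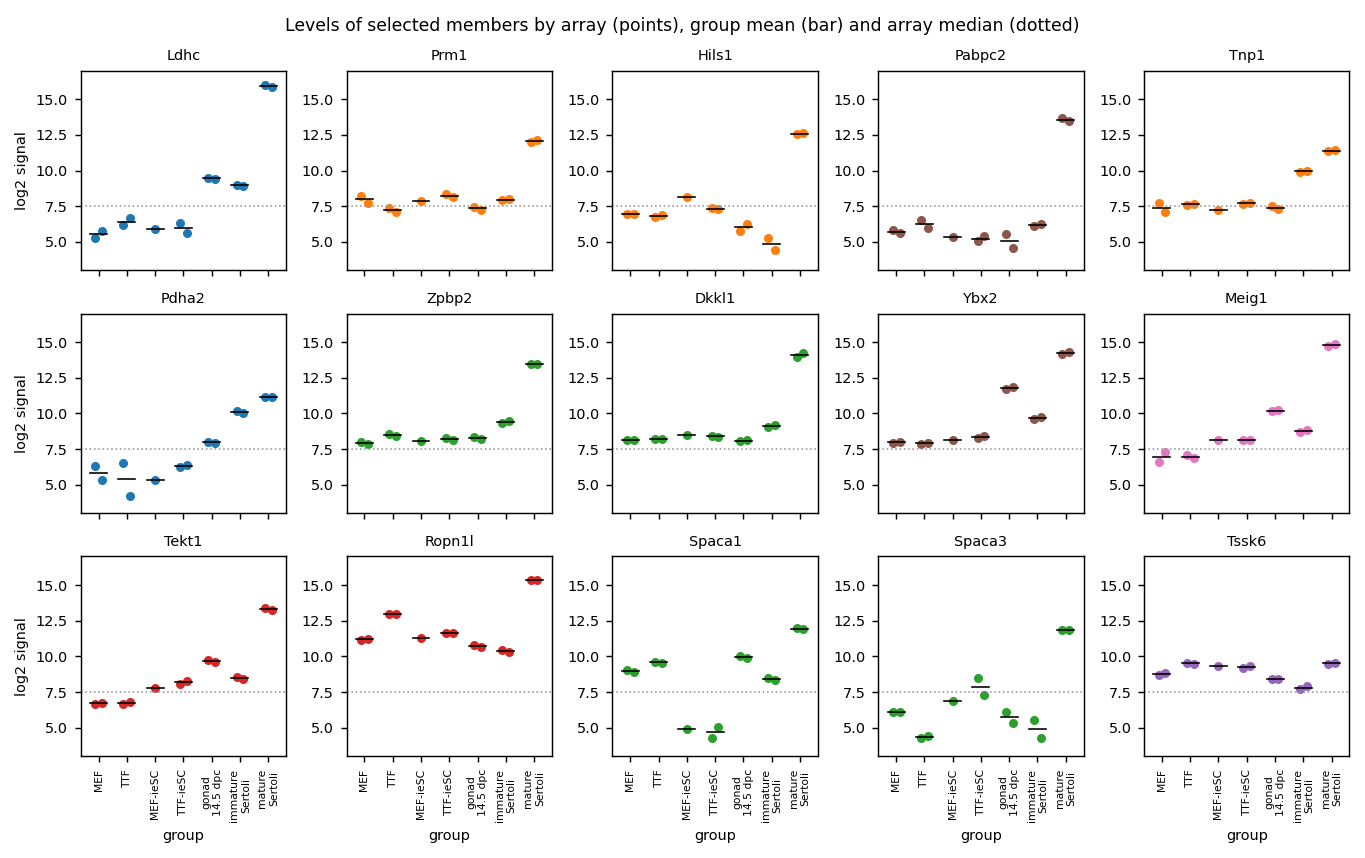
Log2 signal (y axis) of selected members in the 7 groups (x axis), with a point for each array, a bar at the group mean and a dotted line at the array median of 7.488. Ldhc, Pabpc2 and Hils1 stand far above the other groups in mature Sertoli cells, Tnp1 and Pdha2 are also raised in immature cells, Spaca1 is low in the induced cells, and Tssk6 differs little between mature cells and TTF.

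The factor encoded by Crem is known to bind the cAMP response element TGACGTCA, of which TGACG is the left part, so promoters of members were searched for both on either strand. The promoter table, from RefSeq on GRCm38.p6, holds 250 bases before and 50 after a gene's start, and 34 of the 40 members were matched in it with 49 promoters. TGACGTCA, which reads the same on both strands, was in a promoter of 1 of 34 members (2.94%) and of 2.03% of all 27025 genes, or 1.79% of all promoters. TGACG was in a promoter of 13 of 34 members (38.2%) and of 23.0% of all genes, or 20.8% of all promoters; a gene with several promoters counts once. Such a match is a description of letters and not a binding site. The testis enzyme and sperm chromatin members with a match, Ldhc and Gapdhs, are shown with Izumo1, which was chosen after the search because it alone held the full element.
Ldhc, chr7:46861013-46861312, + strand: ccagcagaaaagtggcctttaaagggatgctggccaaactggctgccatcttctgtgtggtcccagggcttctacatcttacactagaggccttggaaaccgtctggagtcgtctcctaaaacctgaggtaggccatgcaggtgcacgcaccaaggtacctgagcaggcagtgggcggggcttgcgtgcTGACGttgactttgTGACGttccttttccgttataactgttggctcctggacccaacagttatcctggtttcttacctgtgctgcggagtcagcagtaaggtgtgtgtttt
Gapdhs, chr7:30743632-30743931, - strand: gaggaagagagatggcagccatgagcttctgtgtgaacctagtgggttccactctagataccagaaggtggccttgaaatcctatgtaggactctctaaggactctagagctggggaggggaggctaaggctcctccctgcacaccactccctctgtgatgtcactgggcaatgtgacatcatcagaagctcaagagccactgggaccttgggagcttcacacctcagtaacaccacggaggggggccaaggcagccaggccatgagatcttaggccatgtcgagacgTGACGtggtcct
Izumo1, chr7:45621561-45621860, + strand: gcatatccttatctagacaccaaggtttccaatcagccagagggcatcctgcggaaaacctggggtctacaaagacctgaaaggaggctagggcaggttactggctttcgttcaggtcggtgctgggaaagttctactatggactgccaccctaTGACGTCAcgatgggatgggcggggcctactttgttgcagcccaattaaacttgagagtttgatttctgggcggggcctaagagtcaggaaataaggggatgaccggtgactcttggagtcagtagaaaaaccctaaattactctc
Capitals mark TGACG in Ldhc and Gapdhs and the whole element in Izumo1, each written 5′ to 3′ on the gene's strand. In Ldhc the first bases of the matches lie at -61 and -47 relative to the start base, in Gapdhs at 38, and in Izumo1 at -96. Another annotated start of Ldhc and another of Gapdhs had no match. The levels of these genes were unlike each other: Ldhc and Gapdhs rose by 6.93 and 4.33 in mature cells, while Izumo1 rose by 1.38 and stayed at the array median.

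The mature cultures were also compared with the gonad and with TTF, on the same mature arrays, so these differences are given side by side. Against the gonad all 40 members were higher, where 29.3% of all genes were called higher, and 39 of them by 1 log2 unit or more, against 14.9% of all genes. None were lower, where 36.4% of all genes were called lower and 15.5% by 1 log2 unit or more. Against TTF 39 were higher, where 30.2% of all genes were called higher, and 37 by 1 log2 unit or more, against 15.7%. Again 0 were lower, where the shares of all genes were 34.0% and 11.5%. The medians were 4.09 and 4.33, and over all genes -0.08 and -0.07. Ldhc differed by 6.44 ± 0.26 from the gonad and 9.49 ± 0.26 from TTF, Meig1 by 4.58 ± 0.20 and 7.81 ± 0.20, and Ybx2 by 2.45 ± 0.09 and 6.33 ± 0.09. These members read higher in the gonad and in immature cells than in fibroblasts. Tssk6 differed from TTF by 0.00 ± 0.08 (adjusted p = 0.982), and Crem by 0.84 ± 0.06. Tested on their own, the other feature of Odf2 was lower than in the gonad (-0.47 ± 0.07) and the second feature of Crem lower than in TTF (-1.20 ± 0.07). With the mean of its features Crem differed from TTF by -0.08 (adjusted p = 0.225), and the call for Catsper3 (1.02 ± 0.26, adjusted p = 0.0102) was lost with the second TTF array left out (0.96, adjusted p = 0.0504).

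Immature Sertoli cells were set against the gonad, both from stages before meiosis. The gonad was whole and not cultured, so age, culture and the cells sampled differed together and cannot be told apart. Here 8 members were higher and 12 lower, close to or under the 26.0% of all genes called higher and the 30.5% called lower, so the counts do not set the members apart. Those by 1 log2 unit or more were 5 and 6, against 9.61% and 10.7% of all genes. The median difference was 0.12, and over all genes -0.02. Single members moved by far more. Tnp1 rose by 2.55 ± 0.18 (adjusted p = 8.57e-06), from 7.51 and 7.29 in the gonad. Pdha2 rose by 2.12 ± 0.66 (adjusted p = 0.0270), where the SE again carried the spread of the TTF arrays. With any of the 4 compared arrays left out the call was lost, while the difference stayed between 2.08 and 2.16. Zpbp2 rose by 1.10 ± 0.09, Dkkl1 by 1.06 ± 0.09 and Crem by 0.44 ± 0.06. Prm1 (0.61) and Spata18 (0.43) were called too, and lost the call without 1 or another array. Without immature replicate 2 Spata18 was 0.26 (adjusted p = 0.164), and with the mean of its features 0.12 (adjusted p = 0.394).

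Several members were lower in immature cells than in the gonad. Ybx2 changed by -2.11 ± 0.09 (adjusted p = 4.91e-07), Spaca1 by -1.56 ± 0.22, Meig1 by -1.43 ± 0.20 and Tekt1 by -1.15 ± 0.10, each with no overlap of the arrays. Smaller falls were called for Odf2 (-0.84), Tekt2 (-0.83), Tcp11 (-0.81), Tssk6 (-0.62), Hspa1l (-0.35) and Ropn1l (-0.34). The Hspa1l call was lost without immature replicate 1 (adjusted p = 0.0509) or gonad replicate 2 (adjusted p = 0.0666). Ybx2, Meig1 and Tekt1 read higher in the gonad and in immature cells than in fibroblasts. Hils1 (-1.15) and Pabpc2 (1.11) were called from dim values, and both calls were lost with only the groups compared (adjusted p = 0.0704 and 0.0730). Pabpc2 also lost it without either immature array (adjusted p = 0.0519 and 0.0802) and without gonad replicate 2, where it was 0.64 (adjusted p = 0.0917). Catsper1 (-1.63 ± 0.49, adjusted p = 0.0224) rested on gonad arrays that read 8.41 and 7.17, and did not pass without the first of them (-1.01, adjusted p = 0.135), without either immature array (adjusted p = 0.0813 and 0.0724) or with only the groups compared (adjusted p = 0.0543).

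Other germ cell genes were read beside the members, in lists by stage of the germ line. These lists, like the members, were chosen with earlier results of these data known, so their counts are not independent support. Of 39 further spermatid genes on the array, 38 were higher in mature than in immature cells and 0 lower, with a median of 3.50. Over all genes 23.4% were called higher and 31.5% lower, with a median of -0.08. Adam3, a sperm surface gene needed for zona binding, rose by 7.33 ± 0.40 and Gsg1, a germ cell membrane gene, by 6.30 ± 0.11. The list of meiotic spermatocyte genes did not follow them. It also holds Stra8, Piwil2, Mael, Tdrd1 and Tdrd9, and whether its genes are limited to spermatocytes was not checked. Of 35, 6 were higher and 15 lower, with a median of -0.27, and their mean level was 10.26 in the gonad, 10.10 in immature cells and 9.89 in mature cells, against 7.14 in MEF and 7.10 in TTF. Early germ cell genes were lower in mature cells in 15 of 20 and higher in 0, with a median of -1.80 and mean levels of 11.66, 10.92 and 9.12 in gonad, immature and mature cells.

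The named examples had the largest called changes between immature and mature cells in each direction, and need not follow their list across all groups. Stra8, which opens meiosis in response to retinoic acid, read 16.60 on average in immature cells, 12.64 in mature cells, 10.46 in the gonad and 6.68 in TTF. From immature to mature cells it changed by -3.95 ± 0.25. Spo11, whose product makes the meiotic DNA breaks, rose by 1.54 ± 0.24 to 8.05, and Ccna1, a cyclin of male meiosis, by 2.37 ± 0.79 (adjusted p = 0.0362). Tex11, of the X chromosome and meiotic recombination, changed by -2.35 ± 0.22. Kit, the stem cell factor receptor, changed by -4.09 ± 0.12 and Sohlh1, a spermatogonial transcription factor, by -3.91 ± 0.09. Kit read 12.83 on average in the gonad, 12.79 in immature cells and 8.70 in mature cells. Sohlh1 read 9.67, 13.48 and 9.56, so its high group was the immature cells.

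Motile cilia genes, some of which sperm tails also use, were higher in mature cells in 14 of 20 and lower in 3, with a median of 1.31. The dynein gene Dnali1 rose by 4.16 ± 0.09 and the radial spoke gene Rsph1 by 3.94 ± 0.09, while Dnah11 changed by -0.57 ± 0.13 and Tppp3 by -0.30 ± 0.07. Markers of somatic testis cells were also read. Of 20 Sertoli cell markers 8 were higher and 7 lower, and of 6 Leydig cell markers 2 and 2. Of 10 macrophage markers it was 3 and 3, and of 7 peritubular and smooth muscle markers 4 and 0. The shares of all genes were 23.4% higher and 31.5% lower, and the Leydig and macrophage counts lay near them. The mean levels of the peritubular list were 15.73 and 15.79 on the immature arrays and 16.36 and 16.38 on the mature ones, and those of the macrophage list 9.68 and 9.72 against 10.02 and 10.04. The Leydig list had a mean level of 10.96 in immature and 10.41 in mature cells. The part that germ cells or other testis cells in the cultures had in the members' levels was not tested.

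Among these markers, Cst9 was higher in mature than in immature cells by 5.43 ± 0.65 and Rhox5, a homeobox gene of Sertoli cells, by 3.21 ± 0.09. Both were highest in the gonad. Cst9 read 16.92 there on average, 7.42 in immature cells and 12.85 in mature cells, and Rhox5 16.52, 10.21 and 13.41. Inha, the inhibin alpha subunit, changed by -2.81 ± 0.06 and Amh by -1.71 ± 0.20. In the steroid pathway Star changed by 1.54 ± 0.06 and Cyp17a1 by 0.54 ± 0.17, against -2.81 ± 0.17 for Hsd17b3 and -1.67 ± 0.15 for Hsd3b1. Of the macrophage genes Aif1 changed by 2.08 ± 0.11 and C1qa by 0.64 ± 0.18, and Cd14 by -1.60 ± 0.08 and Csf1r by -0.60 ± 0.09. The muscle genes Des and Cnn1 rose by 1.51 ± 0.08 and 1.10 ± 0.08.

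**Figure D4:**
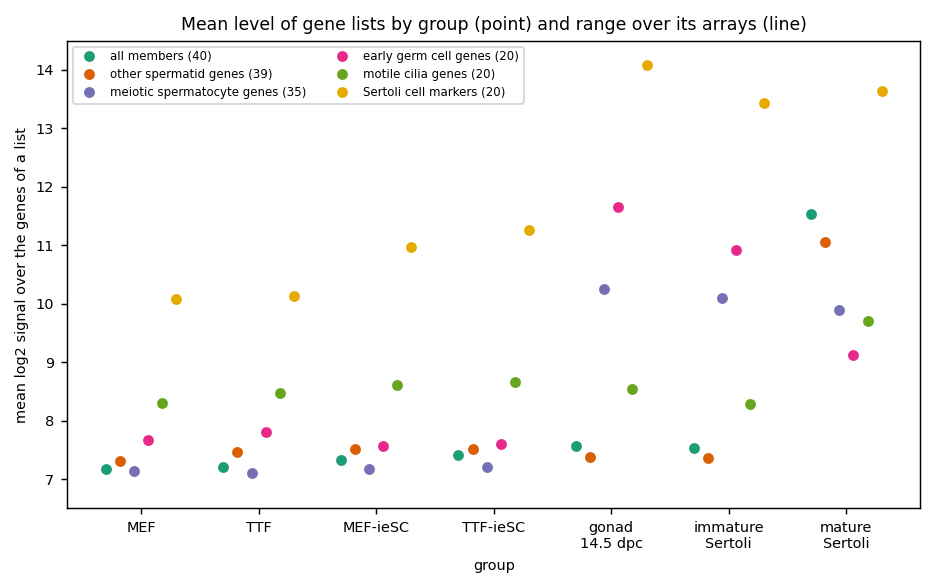
Mean log2 signal over the genes of each list (y axis) in the 7 groups (x axis), with a point at the group mean and a line over the range of its arrays, which is mostly shorter than the point. The members and the other spermatid genes rise in mature Sertoli cells, to 11.53 and 11.05, while the spermatocyte and early germ cell lists are already high in the gonad, at 10.26 and 11.66.

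The inductions asked whether fibroblasts given the 5 factors gained or lost any of these genes. In TTF-ieSC against TTF 11 members were higher and 7 lower, where 32.6% of all genes were called higher and 29.2% lower. In MEF-ieSC against MEF 7 were higher and 4 lower, where the shares were 27.6% and 27.1%. By 1 log2 unit or more, TTF-ieSC had 7 higher and 4 lower, against 14.4% and 14.5% of all genes, and MEF-ieSC had 5 and 3, against 12.2% and 12.7%. Their medians were 0.20 and 0.10, and over all genes 0.055 and 0.015. Of the roles, the 12 tail and motility genes had the largest medians, 1.01 and 1.03. In TTF-ieSC 4 of these were called higher and 2 lower. Ropn1 (1.01 and 1.23), Smcp (1.07 and 1.64), Catsper1 (1.12 and 1.53) and Odf1 (0.88 and 0.98) were higher in both without a call. Those genes stayed under the array median in fibroblasts and induced cells. A total of 22 members were called in at least 1 induction, 7 in both, and 6 of those in the same direction. Such counts were not made over all genes, so they do not set the members apart. The mean level over the members was 7.42 in TTF-ieSC and 7.33 in MEF-ieSC, against 11.53 in mature Sertoli cells.

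Spaca1 had the largest change of any member in both inductions. It read 9.62 and 9.53 in TTF, 9.02 and 8.93 in MEF, 4.28 and 5.08 in TTF-ieSC and 4.88 in MEF-ieSC. The induced arrays were dim and did not overlap with any other array, with changes of -4.90 ± 0.22 (adjusted p = 3.96e-07) and -4.10 ± 0.27 (adjusted p = 5.97e-06). The other feature of Spaca1 changed by -4.53 and -2.56. Spaca3 rose in TTF-ieSC by 3.51 ± 0.50 (adjusted p = 0.000438), from 4.26 and 4.45 to 8.46 and 7.27. The lower of these values is under the array median, and Spaca3 changed by 0.75 ± 0.62 (adjusted p = 0.350) in MEF-ieSC.

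Tekt1, Tcp11, Meig1 and Akap3 rose in both inductions. Tcp11 read 9.01 and 9.02 in TTF-ieSC and 9.01 in MEF-ieSC, against 7.6 and 7.91 in TTF and 7.77 and 7.74 in MEF, and rose by 1.26 ± 0.11 and 1.26 ± 0.13. Those values lay near the 9.48 and 9.37 of the gonad and far under the mature cells. Meig1 rose by 1.17 ± 0.20 and 1.21 ± 0.24 to 8.17 or less, and Tekt1 by 1.44 ± 0.10 and 1.08 ± 0.12. The second feature of Tekt1 rose by 2.20 and 2.28. Akap3 stayed under the array median (up to 6.95).

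The other calls were smaller or rested on fewer arrays. Tekt2 changed by -1.32 ± 0.08 and -0.37 ± 0.09. Ropn1l changed by -1.35 ± 0.06 in TTF-ieSC, to 11.61 and 11.66, near its 11.16 and 11.25 in MEF. Crem changed there by -0.93 ± 0.06 on the tested feature, by -1.22 on the second and by 0.58 on the third, dim one. Prm1 (1.0 ± 0.17) and Odf2 (1.09 ± 0.11) rose in TTF-ieSC, Prm1 to 8.34 and 8.15, about its 8.22 on the first MEF array. The other feature of Odf2 rose by only 0.28 in TTF-ieSC. Spata18 rose there by 0.79 ± 0.14 on the tested feature, while its other, dim feature changed by -0.65. Ybx2 (0.42), Gapdhs (0.50) and Hspa1l (0.38) were higher in TTF-ieSC by less. In MEF-ieSC, Tssk6 rose by 0.59 ± 0.09 and Dkkl1 by 0.39 ± 0.12. There Hils1 also rose by 1.18 ± 0.32, and Acrv1 (-1.54) and Tnp2 (-1.28) fell, where the MEF arrays were uneven, with 6.16 and 7.48 for Acrv1 and 8.53 and 7.42 for Tnp2.

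With only the groups compared, 7 of the 11 MEF-ieSC calls were lost, those of Tnp2, Acrv1, Dkkl1, Akap3, Tekt2, Tssk6 and Meig1. Gapdhs, Zpbp2 (-0.30), Akap3, Tssk6 (-0.25) and Pabpc2 (-1.04) did not pass in TTF-ieSC when 1 or another of the 4 compared arrays was left out. The difference between the inductions, tested itself, called 6 members higher and 5 lower, where 22.5% and 19.8% of all genes were called, and 4 and 1 of them by 1 log2 unit or more, against 8.84% and 8.48%.

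**Figure D5:**
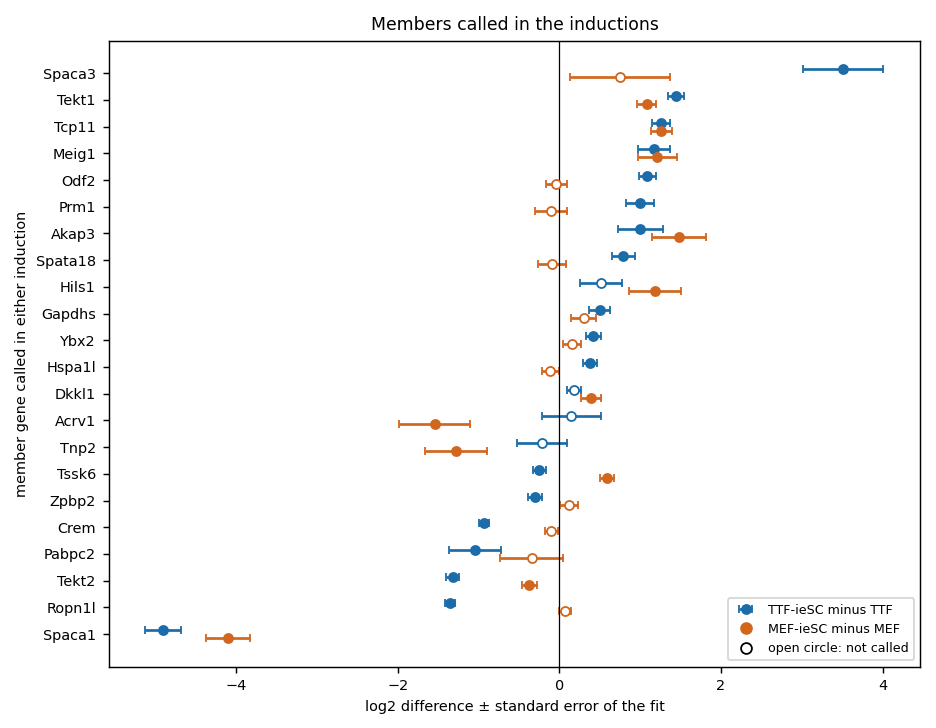
Log2 difference ± SE of the fit (x axis) for the 22 members called in at least 1 induction (y axis), for TTF-ieSC against TTF (blue) and MEF-ieSC against MEF (orange), open where not called. Spaca1 lies far to the left in both, at -4.90 and -4.10, and Spaca3 far to the right from TTF alone, at 3.51.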

How the data were processed

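Total RNA was labelled with Cy3 and read on 1-colour arrays, per the labels' protocols. The authors deposited log2 signals for 62976 features, with the same distribution on every array. Limma was used, per the submitters' processing notes, with no version or role stated. No source used here names the feature extraction or background correction, and there are no detection flags, so precision is set by the number of arrays. Gene names came from the platform annotation, updated through a RefSeq table of GRCm38.p6, with 31465 features carrying 1 symbol and 31511 none. Names came from the accession for 29050 features, the symbol for 2061 and an older name for 349, and 5 kept the platform's name.

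Each gene was represented by its feature with the highest mean. All 20738 genes were fitted in R 4.3.3 with limma 3.58.1 (lmFit, then eBayes), with 13 arrays and 7 groups in 1 fit, 6 residual and 1.41 prior degrees of freedom, two-sided tests and Benjamini-Hochberg adjustment over all genes. Calls needed an adjusted p under 0.05. No filter on low values was set, because a member that passes a filter only through the group where it is high has to differ. The single MEF-ieSC array was taken to have the spread of the rest. The fit was tested on simulated data.

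The members and lists were chosen with earlier results of these data known. Every member was named, with the 2 most changed called genes of each other list in each direction between mature and immature cells. The alternatives were filters at the array median and 75th percentile, averaging the features of a gene, a variance trend with robust fitting, array weights, the compared groups alone, quantile normalization, a minimum difference of 1, leaving out each array and, added after seeing the data, each feature tested on its own. Act, Insl3 and Lhcgr of the lists were not matched.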

Additional observations from a re-analysis of the deposited data

Results flagged for a closer look

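The test of the difference between the inductions, (TTF-ieSC minus TTF) minus (MEF-ieSC minus MEF), called 6 members higher and 5 lower, where 22.5% and 19.8% of all genes were called. It was this difference itself that passed for the members below (limma, adjusted p over all genes), and with a single MEF-ieSC array each value rests on that array.

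Among the acrosome and fusion genes, the difference was 2.77 for Spaca3 (adjusted p = 0.0259), 1.69 for Acrv1 (adjusted p = 0.0481) and -0.42 for Zpbp2 (adjusted p = 0.0433). None of these held throughout: leaving out an array gave an adjusted p of up to 0.0627 for Spaca3, 0.108 for Acrv1 and 0.112 for Zpbp2. For the sperm chromatin gene Prm1 it was 1.10 (adjusted p = 0.0122), and 0.0652 with only the compared groups. Among the tail genes it was 1.13 for Odf2 (adjusted p = 0.00138), -1.42 for Ropn1l (adjusted p = 2.36e-05) and -0.95 for Tekt2 (adjusted p = 0.000567).

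For Tssk6 the difference was -0.84 (adjusted p = 0.00113), with changes of -0.25 from TTF and 0.59 from MEF. For Crem it was -0.83 (adjusted p = 0.000481), for Hspa1l 0.49 (adjusted p = 0.0276, up to 0.0724 with an array left out) and for Spata18 0.88 (adjusted p = 0.0140). The values for Odf2, Crem and Spata18 are those of the tested feature. The other feature of Odf2 changed by 0.28 from TTF and -0.28 from MEF, and that of Spata18 by -0.65 and -0.92. For Crem the second feature changed by -1.22 and -0.12, and the third by 0.58 and 0.37. The starting cells differed in several of the flagged genes: Ropn1l read 12.98 on average in TTF and 11.21 in MEF, Tssk6 9.50 and 8.74, and Crem 10.84 and 10.12.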

How the results depend on the processing

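No paired analysis was run, because the labels do not state which arrays of different groups belong together. The replicate numbers used here follow the order of the arrays in the series within each group. The counts of members called higher in mature cells stayed within 1.5 times under every alternative but the filter at the 75th percentile. That filter leaves 26 members, of which 25 were higher than in immature cells and 26 than in the gonad. Under it 2 members were lower in MEF-ieSC and 3 were higher in the difference between inductions. A member that passes this or the median filter only through the mature arrays has to differ. The filtered counts for mature cells are therefore no support. With each feature tested on its own, 1 member was called lower in mature cells in each comparison: Crem against immature cells and TTF, and Odf2 against the gonad. A minimum difference of 1 left 5 higher and 6 lower in immature cells against gonad, 7 higher and 4 lower in TTF-ieSC, and 1 lower in the difference. With only the groups compared, 1 was lower in MEF-ieSC and 3 were higher in the difference.

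Leaving out 1 array gave 39 to 40 members higher and 0 lower in mature against immature cells, 40 and 0 against the gonad, and 38 to 39 and 0 against TTF. Immature cells against gonad gave 5 to 10 higher and 11 to 14 lower, with 5 without immature replicate 2. TTF-ieSC gave 10 to 14 higher and 4 to 7 lower, with 4 without TTF replicate 1. MEF-ieSC gave 7 to 10 and 4 to 6, and the difference 3 to 8 and 4 to 7, with 3 without TTF-ieSC replicate 1. Without the MEF-ieSC array the last 2 comparisons have no value. Against TTF, Tssk6 ranged from -0.03 (without TTF replicate 2 or mature replicate 2) to 0.03, and Crem was -0.08 with the mean of its features. Catsper3 in MEF-ieSC was -0.46 (adjusted p = 0.0344) without MEF replicate 1 and 0.49 without MEF replicate 2, against 0.02 with both. The cause of these changes was not tested.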
